A study of Rattus norvegicus with 12 samples.

Results

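Thyroid hormone handling and response genes were examined as a list of 8 genes: the plasma carriers Serpina7 and Ttr, the membrane transporter Slc16a10, the deiodinase Dio1, the receptor Thrb and the response genes Klf9, Hr and Thrsp. Members were found through the transcript identifier that each array probe carries, matched to the RefSeq gene table, whatever the probe's signal. No probe matched Serpina7, so no level of it is given. The other 7 members had 11 probes, of which 10 passed the filter on dim probes, and all 7 genes were among the 20359 genes or transcripts tested, 10685 of them with a symbol. No member was left out for low signal.

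The samples were cultures of cryopreserved primary hepatocytes from male Sprague Dawley rats, measured on 12 one-colour arrays. After 24 h of culture the cells received triclosan, diclosan, a compound called CCPB below (1-chloro-3-(4-chlorophenoxy) benzene) or the vehicle DMSO alone for a further 24 h, each chemical at 30 µM, with 3 arrays per group. Triclosan is an antimicrobial diphenyl ether with a phenolic hydroxyl group. Diclosan lacks a chlorine atom that triclosan carries, and CCPB is a chlorinated diphenyl ether without the hydroxyl group. According to its title, the study compared triclosan with structurally similar chemicals for read-across. The labels call the replicates independent experiments and name no animal or donor, so the p-values measure the spread between these cultures. Hepatocytes were cultured without the thyroid gland and without plasma flow, and nothing in the labels names thyroid hormone as an added agent. Levels are from whole cultures, in which fewer cells of a type and less RNA per cell cannot be told apart.

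The thyroid gland releases mostly thyroxine, which travels bound to plasma carriers, enters hepatocytes through membrane transporters and is converted by deiodinases to the active hormone triiodothyronine or to inactive forms. Inside the nucleus the hormone binds receptors that sit on DNA with retinoid X receptor partners, and in liver this changes genes of lipid synthesis, fuel use and cholesterol handling. The liver also clears the hormone by joining it to sulfate or glucuronic acid.

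Every level below is a log2 intensity after subtraction of the array's own 75th percentile, and a difference of 1 on this scale is a doubling. Levels of different genes come from different probes and are not compared with each other. Differences between groups were tested in a limma fit of all 12 arrays, adjusted over all 20359 genes or transcripts by the Benjamini-Hochberg method, and a gene was called when its adjusted p was under 0.05. The 3 comparisons against DMSO share the DMSO arrays. Of each array's probes, 51.6% to 55.5% were well above background. The median half-width of a 95% interval of a difference between groups was 0.14.

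The arrays lay on 2 slides. Slide 1 held all DMSO and triclosan arrays and diclosan replicates 1 and 2. The remaining 4, all CCPB arrays and diclosan replicate 3, were on slide 2. CCPB therefore shared no slide with DMSO or triclosan, and without a model term their difference and the slide cannot be told apart. CCPB results are therefore printed from the fit by group and from a second fit that adds the slide as a term (the slide block), which is estimated from 1 diclosan array against the other 2. Diclosan replicate 3 minus the mean of the other diclosan arrays was -0.28 for Slc16a10, -0.15 for Thrb, -0.12 for Thrsp, -0.11 for Klf9, 0.33 for Hr, -0.03 for Ttr and -0.01 for Dio1. Over all genes tested this shift had a median of -0.01 and a median absolute size of 0.11. Between diclosan replicates 1 and 2, on the same slide, the median absolute difference was 0.0657. Against replicate 3, on the other slide, it was 0.114 for replicate 1 and 0.113 for replicate 2.

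All 10 hepatocyte markers listed (among them Alb, Apob, Cps1 and Hnf4a) were well above background on all 12 arrays. Their summed linear level, relative to the array's 75th percentile, was 1170 to 1210 in DMSO, 1160 to 1210 in triclosan, 1140 to 1200 in diclosan and 1250 to 1270 in CCPB. Markers of other liver cells were also measured: 6 of 8 stellate cell markers, 4 of 8 macrophage markers, 3 of 7 endothelial markers and 3 of 6 cholangiocyte markers entered the test. The summed stellate level was 14.1 to 15.3 in DMSO, 12.7 to 13.7 in triclosan, 12.8 to 14.8 in diclosan and 9.07 to 10.1 in CCPB. The cholangiocyte sum was 2.78 to 2.97 in DMSO, 2.78 to 3.24 in triclosan, 2.79 to 3.05 in diclosan and 3.51 to 3.57 in CCPB. The endothelial sum was 8 to 8.49, 7.44 to 8, 7.92 to 9.58 and 9.35 to 9.67 in the same order, and the macrophage sum 0.719 to 0.997, 0.771 to 1.03, 1.05 to 1.2 and 0.93 to 1.05. Marco, Lrat, Pecam1, Lyve1, Krt19, Spp1 and Cftr were not well above background on any array. The endothelial, cholangiocyte and stellate sums came mostly from their brightest genes, Vwf (mean log2 level 3.06), Epcam (1.42) and Tagln (3.4). The next brightest were Cdh5 (-2.99), Sox9 (-1.4) and Col1a2 (0.6). The brightest hepatocyte markers were Alb (8.39), Apoa1 (8.32) and Serpina1 (8.24). In the fit by group, CCPB minus DMSO was -0.03 for Alb and 0.14 for Apoa1, so these markers did not move together. The hepatocyte, stellate, endothelial and cholangiocyte sums did not overlap between CCPB and DMSO. The triclosan stellate sum lay wholly below DMSO, and the diclosan macrophage sum wholly above it. The part of any of these sums in the results below was not tested.

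Klf9 and Thrsp were the members that differed most between groups, and their promoters are shown here for that reason. RefSeq sequences on the GRCr8 build, 250 bases before to 50 after the annotated start, were found for 7 of the 8 members, and Hr has none in that table. Klf9 lies on the plus strand at chr1:230126396-230126695 and Thrsp on the minus strand at chr1:161138915-161139214. Both are printed 5′ to 3′ on the gene's own strand, with CCAAT on either strand (CCAAT, or ATTGG where it lies on the other strand) in capitals.
Klf9: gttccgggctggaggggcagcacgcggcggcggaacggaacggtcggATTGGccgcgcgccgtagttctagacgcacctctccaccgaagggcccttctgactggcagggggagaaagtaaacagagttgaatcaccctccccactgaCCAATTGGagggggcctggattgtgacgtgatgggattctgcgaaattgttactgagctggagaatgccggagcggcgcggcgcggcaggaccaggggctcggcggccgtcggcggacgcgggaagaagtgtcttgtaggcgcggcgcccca
Thrsp: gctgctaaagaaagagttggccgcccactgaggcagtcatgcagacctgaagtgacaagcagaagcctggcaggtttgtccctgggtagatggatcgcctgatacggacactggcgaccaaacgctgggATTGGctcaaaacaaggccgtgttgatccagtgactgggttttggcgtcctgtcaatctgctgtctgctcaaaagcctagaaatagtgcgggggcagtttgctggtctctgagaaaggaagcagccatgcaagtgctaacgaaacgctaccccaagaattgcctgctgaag
The thyroid hormone receptor half-site AGGTCA, searched on both strands, was in neither sequence. Among the members it was in the Slc16a10 promoter only, on the gene's strand, 241 bases before the start, while 15.7% of all 27457 promoters of this length held it. A pair of AGGTCA on one strand with 4 bases between was in 0 of the 7 member promoters and in 0.00364% of all promoters. The CCAAT motif, chosen after the sequences were seen, was in 4 of the 7 (Klf9, Thrsp, Ttr and Slc16a10) and in 37.7% of all promoters. Klf9 held it at 3 places, 2 of them overlapping each other on opposite strands. These matches describe letters in a short window and say nothing about binding.

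Across the members, Klf9 and Thrsp were called higher with CCPB than with DMSO, groups that shared no slide. Neither triclosan nor diclosan gave a called difference from DMSO. Klf9 was 1.22-fold and Thrsp 1.23-fold higher with CCPB. These 2 calls among 7 members (28.6%) are close to the share called among all genes in that comparison, 28.3%, so the count itself does not set the members apart. With the slide as a block, Klf9 alone remained called, 1 of 7 (14.3%) against 3.46% of all genes. The median difference over the 7 members was 0.18 with CCPB, -0.02 with triclosan and -0.05 with diclosan, where the medians over all genes were 0.01, -0.01 and 0.00. With the slide block the members' median was 0.12 with CCPB.

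**Figure D1:**
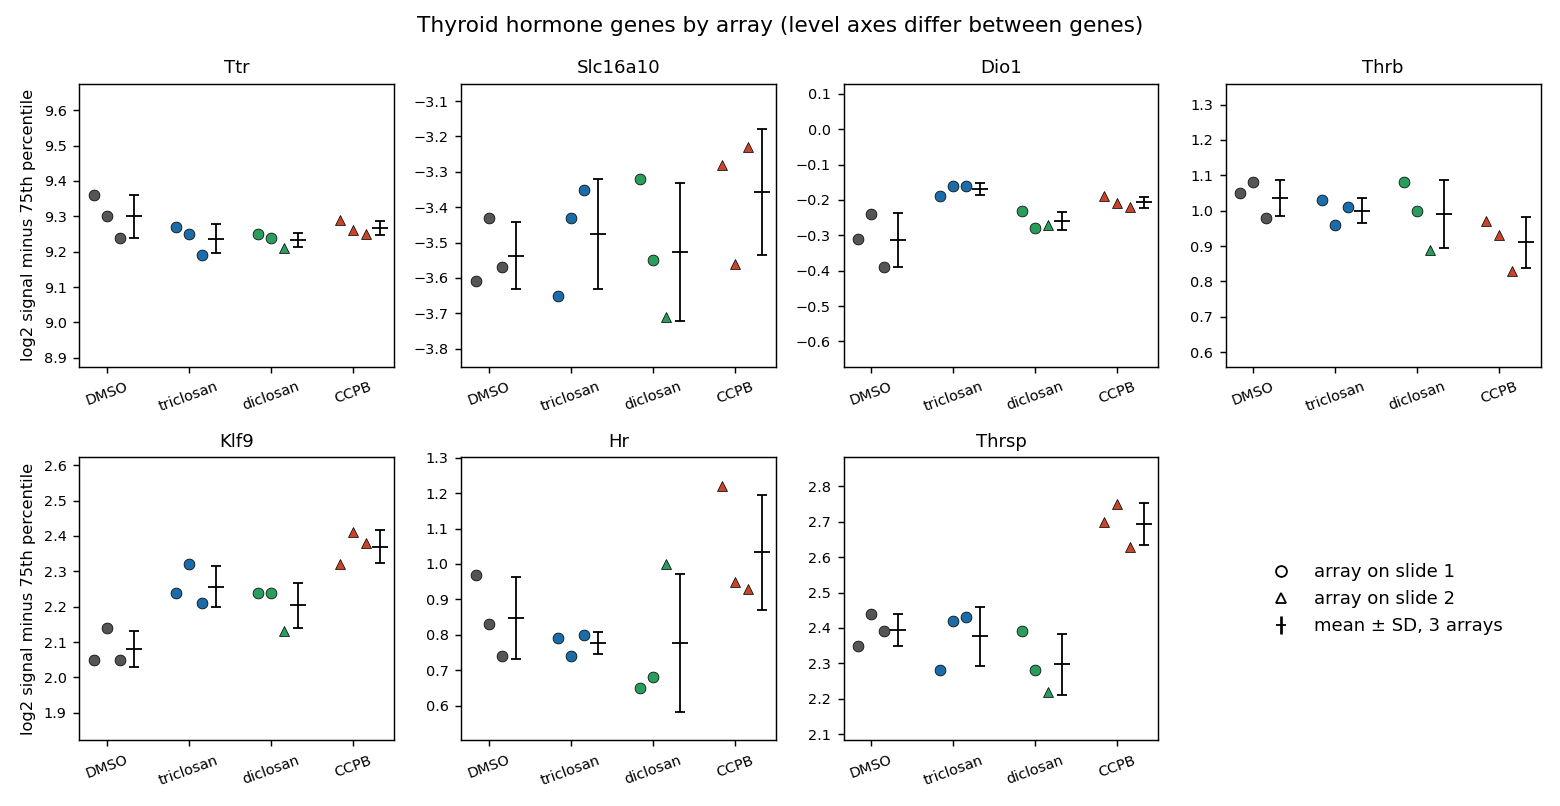
Log2 level of the 7 measured members on each of the 12 arrays (vertical axis, log2 intensity minus the array's 75th percentile), with 1 panel per gene, 1 point per array and a bar at each group's mean. The CCPB points of Klf9 (2.32 to 2.41) and Thrsp (2.63 to 2.75) lie above every DMSO point (2.05 to 2.14 and 2.35 to 2.44), while Ttr spans only 9.19 to 9.36 over all arrays.

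Ttr encodes transthyretin, a plasma carrier of thyroxine that hepatocytes make in large amounts (probe A_64_P143865, gene 24856). Its probe was printed 10 times on each array, and all 10 spots were usable on every array, with an SD between spots of 0.106 to 0.126. Its level was 9.36, 9.30 and 9.24 on the DMSO arrays, 9.27, 9.25 and 9.19 with triclosan, 9.25, 9.24 and 9.21 with diclosan and 9.29, 9.26 and 9.25 with CCPB. All groups overlapped with DMSO. The differences from DMSO were -0.07 for triclosan (95% interval -0.15 to 0.02, adjusted p = 0.548), -0.07 for diclosan (-0.15 to 0.02, 0.577) and -0.04 for CCPB (-0.12 to 0.05, 0.507), by limma. None was called.

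Slc16a10 encodes MCT10, a transporter of aromatic amino acids that also carries thyroid hormone across the cell membrane (probe A_44_P226315, gene 170566). Its level came from a single spot per array, which was above background on all 12 arrays. The DMSO arrays read -3.61, -3.43 and -3.57, triclosan -3.65, -3.43 and -3.35, diclosan -3.32, -3.55 and -3.71, and CCPB -3.28, -3.56 and -3.23. Replicates of a group lay as far apart as the groups did. The CCPB difference from DMSO was 0.18 (95% interval -0.09 to 0.45, limma adjusted p = 0.293). With the slide as a block it was 0.46 (0.004 to 0.91, adjusted p = 0.271). The triclosan difference was 0.06 (-0.21 to 0.33, adjusted p = 0.894) and the diclosan difference 0.01 (-0.26 to 0.28, 0.986). The intervals from the fit by group are wide and leave room for changes in either direction. The slide block interval, which is unadjusted, begins at 0.004, and that difference was not called.

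Dio1 encodes the type 1 deiodinase, which in liver makes triiodothyronine from thyroxine and is itself a classical thyroid hormone target (probe A_64_P155193, gene 25430). DMSO arrays read -0.31, -0.24 and -0.39, and triclosan arrays -0.19, -0.16 and -0.16. Diclosan arrays read -0.23, -0.28 and -0.27, and CCPB arrays -0.19, -0.21 and -0.22. Every triclosan and CCPB array lay above every DMSO array, and diclosan overlapped with DMSO. The triclosan difference was 0.15, or 1.11-fold (95% interval 0.06 to 0.24), with an unadjusted p of 0.00421 and an adjusted p of 0.218 in limma's fit over all genes. The CCPB difference was 0.11 (0.02 to 0.20, adjusted p = 0.0719), and with the slide as a block 0.12 (-0.05 to 0.28, adjusted p = 0.453). The diclosan difference was 0.06 (-0.03 to 0.15, adjusted p = 0.662). None of these passed the test, but without DMSO replicate 2 the CCPB difference was 0.15 and was called (adjusted p = 0.0312).

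Thrb encodes the thyroid hormone receptor beta, the main receptor form in liver (gene 24831). It had 3 probes. The brightest, A_44_P468153, stands for the gene and read 1.05, 1.08 and 0.98 in DMSO, 1.03, 0.96 and 1.01 with triclosan, 1.08, 1.00 and 0.89 with diclosan and 0.97, 0.93 and 0.83 with CCPB. All CCPB arrays were below all DMSO arrays by this probe, and the other groups overlapped with DMSO. The CCPB difference was -0.13 (95% interval -0.25 to -0.01, limma adjusted p = 0.106), and 0.02 with the slide as a block (-0.17 to 0.21, adjusted p = 0.929). For triclosan it was -0.04 (-0.16 to 0.08, adjusted p = 0.847) and for diclosan -0.05 (-0.17 to 0.08, adjusted p = 0.798). The second probe, A_44_P868920, gave -0.08 with CCPB (-0.28 to 0.11, adjusted p = 0.495) when all 24254 kept probes were fitted separately, and its groups overlapped. The third, A_64_P083635, was not well above background on any array (0 of 12).

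Klf9 encodes a zinc-finger transcription factor that thyroid hormone induces in several tissues and that glucocorticoids induce as well (probe A_43_P13064, gene 117560). DMSO arrays read 2.05, 2.14 and 2.05, triclosan arrays 2.24, 2.32 and 2.21, diclosan arrays 2.24, 2.24 and 2.13, and CCPB arrays 2.32, 2.41 and 2.38. Triclosan and CCPB arrays were all above all DMSO arrays. The lowest diclosan array was just below the highest DMSO array. Group means were 2.08 ± 0.05, 2.26 ± 0.06, 2.20 ± 0.07 and 2.37 ± 0.05 (SD, n = 3) in the same order. The CCPB difference from DMSO was 0.29 (95% interval 0.18 to 0.40, limma adjusted p = 0.00212), and it was 0.40 with the slide as a block (0.23 to 0.57, adjusted p = 0.025). With triclosan it was 0.17, or 1.13-fold (0.07 to 0.28), with an unadjusted p of 0.00429 and an adjusted p of 0.219. With diclosan it was 0.12 (0.02 to 0.23), with an unadjusted p of 0.028 and an adjusted p of 0.409. Klf9 was thus called higher with CCPB than with DMSO in both fits, though these groups shared no slide. With slide and replicate number both as blocks the limma call was lost (adjusted p = 0.0551). The smaller differences with the other compounds did not pass the test.

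Hr encodes the hairless protein, a nuclear corepressor that binds the thyroid hormone receptor and is induced by the hormone in brain (gene 60563). Its 3 probes, all above background on all arrays, did not give the same picture. The brightest, A_44_P1113419, read 0.97, 0.83 and 0.74 in DMSO, 0.79, 0.74 and 0.80 with triclosan, 0.65, 0.68 and 1.00 with diclosan and 1.22, 0.95 and 0.93 with CCPB. By this probe CCPB minus DMSO was 0.18 (95% interval -0.05 to 0.42, limma adjusted p = 0.218), and -0.15 with the slide as a block (-0.49 to 0.19, adjusted p = 0.66). Diclosan replicate 3, on the CCPB slide, was the highest diclosan array by this probe.

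Probe A_43_P15388 of Hr went the other way. It read -2.89, -2.89 and -3.22 in DMSO, -2.96, -2.96 and -3.01 with triclosan, -2.94, -3.02 and -3.20 with diclosan and -3.38, -3.24 and -3.27 with CCPB, so every CCPB array was below every DMSO array. In the fit of all kept probes, chosen after the data were seen, the CCPB difference was -0.30 (95% interval -0.51 to -0.09, limma adjusted p = 0.0404), and -0.08 with the slide as a block (-0.43 to 0.27, adjusted p = 0.842). The remaining probe, A_44_P1113409, gave -0.24 (-0.69 to 0.22, adjusted p = 0.415), with overlapping groups. With triclosan and diclosan, the differences from DMSO by the brightest probe were -0.07 (-0.31 to 0.17, adjusted p = 0.858) and -0.07 (-0.31 to 0.16, adjusted p = 0.837). The direction of Hr with CCPB therefore depended on the probe, and no probe's difference was called with the slide block.

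**Figure D2:**
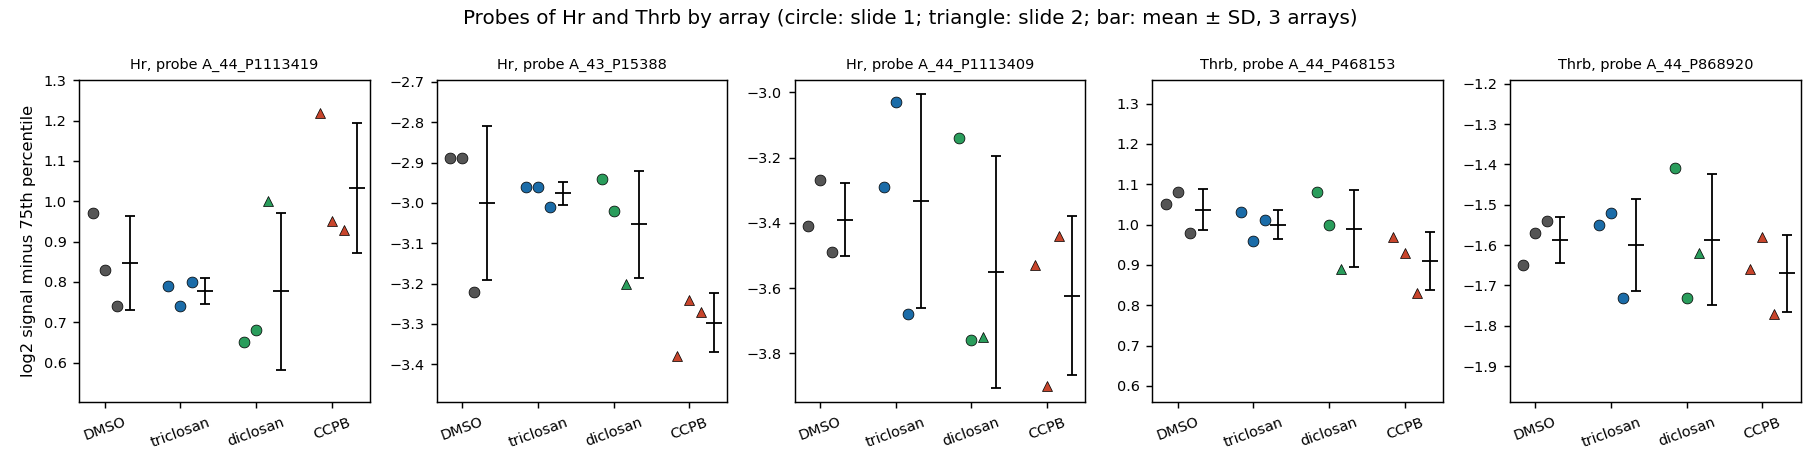
Log2 level of the 3 Hr probes and the 2 kept Thrb probes on each array (vertical axis, log2 intensity minus the array's 75th percentile), with 1 panel per probe and a bar at each group's mean. In CCPB the Hr probe A_44_P1113419 reads 0.93 to 1.22 against 0.74 to 0.97 in DMSO, and A_43_P15388 reads -3.38 to -3.24 against -3.22 to -2.89.

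Thrsp encodes Spot 14, a protein that promotes fatty acid synthesis and a long-used marker of thyroid hormone action in rat liver, also raised by carbohydrate and insulin (probe A_43_P11520, gene 25357). DMSO arrays read 2.35, 2.44 and 2.39, triclosan arrays 2.28, 2.42 and 2.43, diclosan arrays 2.39, 2.28 and 2.22, and CCPB arrays 2.70, 2.75 and 2.63. All CCPB arrays were above every other array, and the triclosan and diclosan arrays overlapped with DMSO. Group means were 2.39 ± 0.04, 2.38 ± 0.09, 2.30 ± 0.09 and 2.69 ± 0.06 (SD, n = 3). The CCPB difference from DMSO was 0.30 (95% interval 0.17 to 0.43, limma adjusted p = 0.00547). With the slide as a block it was 0.42 (0.20 to 0.64) and its adjusted p was 0.0552, which ends the call, and centring arrays on their median also ended it (0.27, adjusted p = 0.0579). Triclosan gave -0.02 (-0.15 to 0.11, adjusted p = 0.935) and diclosan -0.10 (-0.23 to 0.03, adjusted p = 0.591).

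For triclosan, 0 of the 7 members were called by limma, with 2 (Dio1 and Klf9) at an unadjusted p under 0.05, while 0.0639% of all genes were called and 11.6% had an unadjusted p under 0.05. For diclosan 0 of 7 were called, with 1 (Klf9) at an unadjusted p under 0.05, and 0.00982% of all genes were called and 10.6% had an unadjusted p under 0.05. Groups that do not overlap give a second view: 2 of 7 members did not overlap with DMSO in triclosan, 0 of 7 in diclosan and 4 of 7 in CCPB. Among all genes the shares were 19%, 16.1% and 50.1%.

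**Figure D3:**
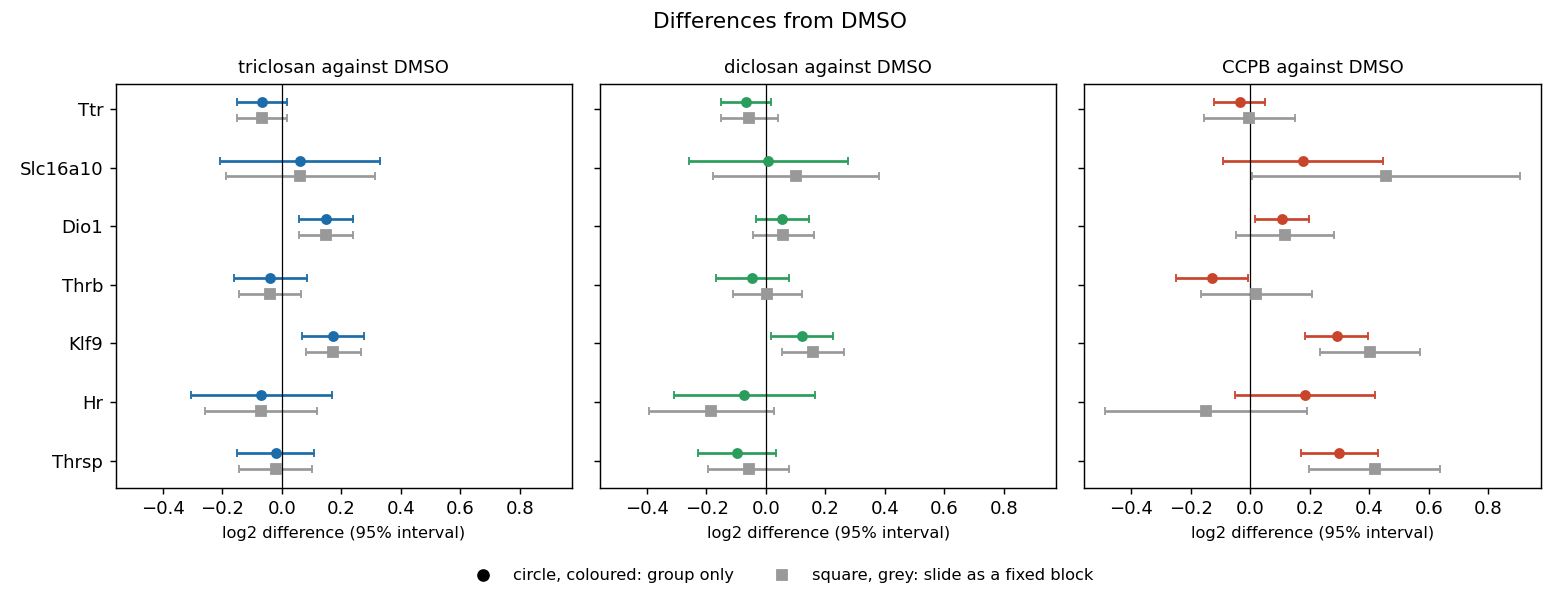
Difference of each member from DMSO (horizontal axis, log2, with 95% intervals) for triclosan, diclosan and CCPB, from the fit by group (circles) and the fit with the slide as a fixed block (squares). For CCPB, Klf9 (0.29 and 0.40) and Thrsp (0.30 and 0.42) lie above 0 with both intervals, while Hr (0.18 and -0.15) and Thrb (-0.13 and 0.02) change sign between the fits.

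The chemicals were also compared with each other at the same concentration and time, which gave 6 pairwise comparisons with DMSO included. Triclosan and diclosan, which differ by a chlorine atom, gave 0 of 7 called members, and 0% of all genes were called between them. At an unadjusted p under 0.05 there was 1 member, Dio1, with a difference of 0.09, triclosan minus diclosan (95% interval 0.00 to 0.18, limma adjusted p = 0.72), where every triclosan array lay above every diclosan array. The Klf9 difference was 0.05 (-0.05 to 0.16) and the Thrsp difference 0.08 (-0.05 to 0.21). With 3 arrays a group, differences within these intervals are not excluded, and a missed threshold does not show that the compounds act alike.

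Diclosan and triclosan both carry the hydroxyl group that CCPB lacks. Thrsp was lower with each of them than with CCPB: triclosan minus CCPB was -0.32 (95% interval -0.45 to -0.19, limma adjusted p = 0.00621) and diclosan minus CCPB -0.40 (-0.53 to -0.27, adjusted p = 0.00213). With the slide as a block the values were -0.44 (-0.66 to -0.22, adjusted p = 0.0702) and -0.48 (-0.65 to -0.30, adjusted p = 0.0107). With that block, the diclosan value is the difference between diclosan replicate 3 and the CCPB arrays of slide 2, so it rests on 1 diclosan array. Fitted on the slide 2 arrays alone, its adjusted p was 0.124. Klf9 was lower with diclosan than with CCPB by the fit (-0.17, 95% interval -0.27 to -0.06, adjusted p = 0.0397), and with the slide block at -0.24 (adjusted p = 0.0485). Leaving out any of 8 arrays ended the Klf9 call: DMSO 1 or 3, triclosan 1, any diclosan array, CCPB 2 or CCPB 3, with adjusted p-values of 0.0511 to 0.126. Triclosan minus CCPB for Klf9 was -0.12 (-0.22 to -0.01, adjusted p = 0.103), and -0.23 with the slide block (-0.40 to -0.06, adjusted p = 0.186).

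In these comparisons 1 of 7 members (14.3%) was called between triclosan and CCPB, where 20.5% of all genes were called, and 0 with the slide block, where 1.41% were. Between diclosan and CCPB 2 of 7 (28.6%) were called against 14.4% of all genes, and with the slide block also 2 of 7, the same genes, against 4.95%. By the probe that stands for each gene, no other member was called between any pair of chemicals in either fit. By the brightest Hr probe, triclosan minus CCPB was -0.25 (95% interval -0.49 to -0.02, limma adjusted p = 0.115) and 0.08 with the slide block (adjusted p = 0.852). Diclosan minus CCPB was -0.26 (-0.49 to -0.02, adjusted p = 0.131) and -0.04 with the block (adjusted p = 0.912). By probe A_43_P15388 the same differences were 0.32 (adjusted p = 0.0407) and 0.24 (adjusted p = 0.113), and 0.10 for both with the block (adjusted p = 0.817 and 0.736).

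Other genes of the pathway were taken from a list of 48, of which 43 were tested. Ugt1a1, Ncoa1 and Ncoa3 had no matching probe, and the probes of Dio2 and Cyp7a1 were too dim. With triclosan and with diclosan, 0 of 43 were called by limma against DMSO. At an unadjusted p under 0.05 there were 7 of 43 with triclosan and 9 of 43 with diclosan. Among all 20359 genes there were 2359 (11.6%) and 2152 (10.6%). Both list shares are thus larger than those of all genes, which was not tested. With CCPB, 11 were higher and 5 lower than in DMSO (37.2% of 43, beside 28.3% of all genes), and 7 higher and 1 lower when arrays were centred on their median. With the slide as a block 3 were higher and 0 lower (6.98%, beside 3.46%). The 11 higher by group include Pck1, which was too dim in DMSO to pass the filter there and entered the test through other groups. The share of all genes came from the same filter, and how many of those genes entered in that way was not counted. The median difference over the list was 0.06 with CCPB (0.15 with the block), -0.03 with triclosan and -0.02 with diclosan.

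**Figure D4:**
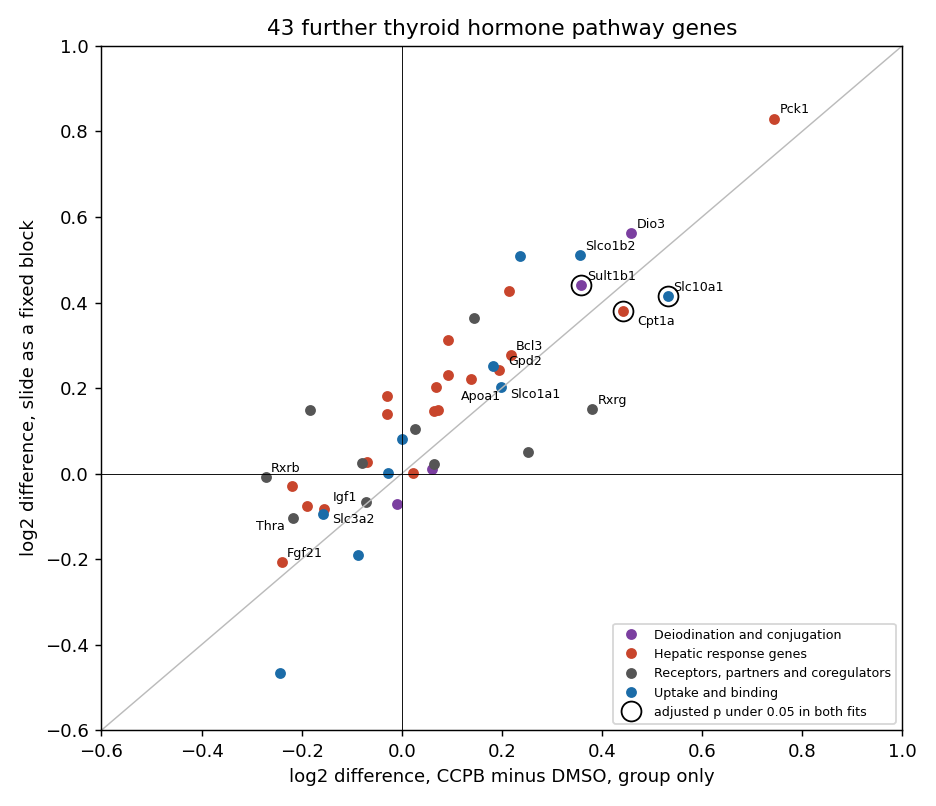
Differences of the 43 further pathway genes between CCPB and DMSO (log2) from the fit by group (horizontal axis) and with the slide as a fixed block (vertical axis), coloured by role, with the line of equal values in grey. Slc10a1, Sult1b1 and Cpt1a, ringed, had an adjusted p under 0.05 in both fits, and Rxrb was at -0.27 by group and -0.01 with the block.

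Among uptake and binding genes, 3 of 10 were higher and 1 lower with CCPB (40%, beside 28.3% of all genes). Slc10a1, the sodium-dependent bile acid transporter that can also carry thyroid hormones, read 0.61, 0.78 and 0.76 in DMSO and 1.25, 1.32 and 1.18 with CCPB. Its difference was 0.53 (limma adjusted p = 0.000214), and 0.42 with the slide block (adjusted p = 0.0495). Slco1b2 and Slco1a1, organic anion transporters of the hepatocyte membrane, were higher by 0.36 (adjusted p = 0.00586) and 0.20 (adjusted p = 0.0335), and with the block these calls were lost (adjusted p = 0.0513 and 0.386). Slc3a2, the heavy chain of amino acid transporters that also carry thyroid hormone, fell by 0.16 log2 units (adjusted p = 0.0243), and the value was -0.09 with the block (adjusted p = 0.577).

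Among genes of deiodination and conjugation, 2 of 4 were higher with CCPB (50%, beside 28.3% of all genes). Sult1b1, a sulfotransferase that acts on thyroid hormones, read 6.46, 6.56 and 6.58 in DMSO and 6.99, 6.79 and 6.90 with CCPB, a difference of 0.36 (limma adjusted p = 0.00175), and 0.44 with the block (adjusted p = 0.0491). Dio3, the type 3 deiodinase that inactivates thyroid hormone, read -1.13, -1.13 and -1.14 in DMSO, -0.43, -0.76 and -0.74 with triclosan, -0.82, -0.94 and -0.98 with diclosan and -0.69, -0.66 and -0.68 with CCPB. All arrays of every chemical were above all DMSO arrays. The CCPB difference was 0.46 (adjusted p = 0.00298), and 0.56 with the block (adjusted p = 0.0724). The triclosan difference was 0.49 (95% interval 0.32 to 0.67), just outside the threshold at an adjusted p of 0.0618. Over 24 alternatives this difference was 0.38 to 0.55, and it was called in 2 of them, with normexp background correction (adjusted p = 0.0344) and with probes above background on all 12 arrays (adjusted p = 0.0486). In the other 22 it was not called, with adjusted p up to 0.383 (median centring). Diclosan gave 0.22 (adjusted p = 0.381).

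Receptors, partners and coregulators gave 1 of 10 higher and 2 lower with CCPB (30%, close to the 28.3% of all genes). None was called with the slide block, beside 3.46% of all genes. Thra, the other thyroid hormone receptor gene, fell by 0.22 log2 units (limma adjusted p = 0.0148), and the value was -0.10 with the block (adjusted p = 0.589). Of the retinoid X receptors, Rxrb fell by 0.27 (adjusted p = 0.015) and Rxrg was 0.38 higher (adjusted p = 0.00878). With the slide block these became -0.01 (adjusted p = 0.961) and 0.15 (adjusted p = 0.581).

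Of the 19 hepatic response genes tested, 5 were higher and 2 lower with CCPB (36.8%, beside 28.3% of all genes). The 5 higher include Pck1, with the limit given below. Cpt1a, the gatekeeper of mitochondrial fatty acid oxidation, read 1.37, 1.29 and 1.31 in DMSO, 1.69, 1.81 and 1.79 with CCPB, and 1.24 to 1.43 with the other chemicals. Its difference was 0.44 (limma adjusted p = 0.000129), and 0.38 with the block (adjusted p = 0.0311). Pck1, of gluconeogenesis, was above background on 1 of 3 DMSO arrays and on every array of the chemicals, so its DMSO level is only partly measured and it had to be bright in some other group to be tested. Its fitted difference was 0.74 with CCPB (adjusted p = 0.0178, and 0.266 with the block) and 0.81 with triclosan, which was not called (adjusted p = 0.164). Gpd2, the mitochondrial glycerol phosphate dehydrogenase that thyroid hormone induces, was 0.20 higher (adjusted p = 0.00503), Bcl3 0.22 higher and Apoa1 0.14 higher. Igf1 fell by 0.16 and Fgf21 by 0.24 (adjusted p = 0.00768 and 0.00911), and with the block the values were -0.08 (adjusted p = 0.439) and -0.21 (adjusted p = 0.302). Of these, Cpt1a alone was called with the slide block.

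Between the chemicals, 0 of the 43 were called between triclosan and diclosan. At an unadjusted p under 0.05 there were 5 of 43, beside 1391 of all 20359 genes (6.83%). Relative to CCPB, triclosan had 3 higher and 11 lower (5 and 10 after quantile normalization), and diclosan 5 higher and 11 lower. By group these were 32.6% and 37.2% of the list, beside 20.5% and 14.4% of all genes. With the slide block there were 0 for triclosan and 11 lower for diclosan, 8 of which were called in both fits. These were 0% and 25.6% of the list, beside 1.41% and 4.95% of all genes. The diclosan values of that block rest on 1 diclosan array, replicate 3. Leaving out 1 array reduced the triclosan count from 14 to 5 (triclosan 2), 4 (triclosan 3), 6 (CCPB 1), 7 (CCPB 2) or 8 (CCPB 3), and the diclosan count from 16 to 9 (diclosan 2), 6 (CCPB 1), 7 (CCPB 2) or 9 (CCPB 3). Among all genes the same omissions left 10.4% to 11.5% called for triclosan and 8.83% to 10.4% for diclosan. Cpt1a was lower with triclosan (-0.38, limma adjusted p = 0.000624) and diclosan (-0.50, adjusted p = 0.000131) than with CCPB, as was Slc10a1 (-0.50, adjusted p = 0.000624, and -0.51, adjusted p = 0.00044). With the slide block both were called for diclosan (adjusted p = 0.00449 and 0.013) and neither for triclosan (0.0812 and 0.0951). Of the genes of fatty acid synthesis on the list, Fasn, Acaca and Scd were called lower with both (-0.15 to -0.24), while Acly, Me1 and Srebf1 were not called with either (-0.02 to -0.07). With the slide block none of the triclosan calls among these remained (adjusted p = 0.132 for Fasn, 0.121 for Acaca and 0.0526 for Scd). For diclosan the block ended the Fasn call (adjusted p = 0.0549) and left Acaca (0.0414) and Scd (0.0154).

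Genes with a pattern like a member's were sought by the root mean square difference of log2 levels over the 12 arrays, each gene centred on its own mean. No member's group means spanned the 0.5 log2 units set for this description. At a span of 0.25, set after the data were seen, Klf9, Hr and Thrsp entered. Nearest to Klf9 were Golt1a (0.0397), Aox1 (0.0454) and Timm10 (0.0476). Among the 3 nearest to Thrsp were Alas1 (0.0543), the first enzyme of haem synthesis, and Sec16b (0.055). Among the 3 nearest to the brightest Hr probe were Ppp4r3b (0.051) and Itch (0.0652). The points share their arrays and slides. Alas1 means were 5.63 in DMSO, 5.63 with triclosan, 5.56 with diclosan and 5.99 with CCPB (n = 3 each).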

How the data were processed

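Gene expression was measured on 12 one-colour arrays, 3 per group, with groups taken from the labels. Per the labels' protocols, total RNA was labelled with Cy3. The scanner files deposited for each array give, per the file headers, a linear intensity per spot from Feature Extraction 10.7.1.1, background-subtracted and not scaled between arrays, with flags for spots. A table of linear signal per probe, deposited by the authors, has a 75th percentile of 1.001 to 1.004 and column medians of 0.048 to 0.055, and it was used as an alternative. How that table was made is not given in the sources used here.

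Of 62976 spots per array, 58717 were not controls and gave 45598 probes, 2319 of them printed more than once. Non-uniform spots (1 to 8 per array) were left out, 0 were saturated, and 19 probes without a usable spot were dropped. Spots were averaged as log2 values, and each array's 75th percentile was subtracted. Probes above background on all 3 arrays of a group were kept (24254). RefSeq accessions named 21218 probes and left 24361 without a symbol. The brightest kept probe stood for a gene. Percentile scaling hides any change shared by most bright probes. The array number, 3 per group, limits the precision. No column of another sample was present (0).

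All arrays were fitted by group in R 4.3.3, using limma 3.58.1 and, for reading files, data.table (version 1.17.8), with 6 two-sided contrasts. Intervals are 95% and unadjusted. The fitting code was tested on simulated data. The members, the pathway list and the marker lists were chosen with earlier results of these data known. All members were named. Of the pathway list, genes called both without and with the slide block and up to 4 more per role, by smallest p, could be named; the remaining called genes (Pck1 and Apoa1), the enzymes of fatty acid synthesis and the genes compared between chemicals were named after their values were seen. Alternatives were the slide, the replicate number and both as blocks, arrays of one slide, the compared groups only, median centring, quantile normalization, normexp background correction (offset 50, on the median spot signal, since the mean was not among the columns), the authors' table, no filter or a stricter filter, the mean of a gene's probes, and leaving out each array. Array annotation was used for names only, and gene coordinates were not used here beyond the printed promoters. Some genes with a pattern like a member's are not reported here.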

Additional observations from a re-analysis of the deposited data

How the results depend on the processing

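Counts of called members moved for CCPB against DMSO from 2 to 1 with the slide block, 0 with the replicate block with slide and 1 with median centring. For triclosan against CCPB they moved from 1 to 0, 0 with the replicate block with slide, and 2 with normexp. For diclosan against CCPB they moved from 2 to 1 with the replicate block with slide. They also moved to 1 each with the compared groups only, median centring and no filter. The slide 2 arrays alone hold 1 diclosan array, so no count is given for them. The pathway list moved for CCPB against DMSO from 16 to 3 (slide), 0 (replicate block with slide), 8 (median centring) and 9 (no filter). For triclosan against CCPB it moved from 14 to 0, 0, 4 and 4 in the same order. For diclosan against CCPB it moved from 16 to 11 (slide) and 3 (replicate block with slide). It also moved to 2 (compared groups only), 3 (median centring) and 5 (no filter). For triclosan against DMSO it moved from 0 to 1 with normexp and with the stricter filter. Leaving out 1 array gave 2 to 3 members for CCPB against DMSO, 1 to 1 for triclosan against CCPB, 1 to 2 for diclosan against CCPB and 0 to 0 for the other comparisons, and for the pathway list 12 to 20, 4 to 15, 6 to 17 and 0 to 0. Called shares of all genes also moved. For CCPB against DMSO they went from 28.3% to 3.46% (slide), 1.47% (replicate block with slide), 16.3% (median centring) and 7.19% (no filter). In the same order, triclosan against CCPB went from 20.5% to 1.41%, 0.0589%, 11.7% and 3.59%. Diclosan against CCPB went from 14.4% to 4.95%, 2.79%, 6.72% and 3.27%. Leaving out 1 array gave 18% to 34.8%, 10.4% to 27.7% and 8.11% to 26.7%. With the compared groups only, 6.07% of all genes were called for diclosan against CCPB. With normexp the share was 25% for triclosan against CCPB. For triclosan against DMSO it was 0.0982% with normexp and 0.174% with the stricter filter. The cause was not tested.

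Among members, values that changed sign were not called in either setting. Slc16a10 was -0.0433 with triclosan, -0.0207 with diclosan and -0.0068 with CCPB under normexp, and with diclosan -0.0038 under median centring and -0.0016 in the authors' table. Hr was 0.0022 with triclosan and -0.116 with CCPB as the mean of its probes, and with CCPB -0.148 (slide) and -0.242 (replicate block with slide). Thrb was 0.0036 with diclosan (slide, and within slide 1) and 0.0204 with CCPB (slide), and Ttr 0.009 with CCPB (quantile). Leaving out 1 array gave -0.047 to 0.0293 for Thrsp and -0.002 to 0.148 for Slc16a10 with triclosan, and -0.0888 to 0.0036 for Thrb and -0.095 to 0.101 for Slc16a10 with diclosan. Klf9 with CCPB stayed at 0.26 to 0.40 over 23 alternatives and lost its call in 1, the replicate block with slide (adjusted p = 0.0551). Thrsp with CCPB stayed at 0.27 to 0.42 and lost its call in 3 (adjusted p up to 0.137).

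The replicate number as a block alone (replicate block) left 2 members called for CCPB against DMSO, 1 for triclosan against CCPB, 2 for diclosan against CCPB and 0 elsewhere, and 17, 14, 16 and 0 of the pathway list. Among all genes it left 27.2% called for CCPB against DMSO, 18.6% for triclosan against CCPB and 14% for diclosan against CCPB. Deviations of same-numbered arrays correlated at -0.165 to 0.117 over 18 pairs, 1 of them over 0.1. Differently numbered arrays gave -0.171 to 0.173 over 36 pairs, 7 of them over 0.1. Of 12 arrays, 2 were closest to their own number. Whether same-numbered arrays share an experiment or a donor was not tested.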
